A study of Saccharomyces cerevisiae with 12 samples.

Results

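RNA of the Saccharomyces cerevisiae genes that break down proline, arginine, urea and gamma-aminobutyric acid (GABA) was followed over 10 genes, out of 7127 features in the count table. They were chosen by name for their place in these pathways, with earlier results of these data known. Proline is oxidised by PUT1 (YLR142W, proline dehydrogenase) and PUT2 (YHR037W, which makes glutamate from the product of PUT1). Arginine is split into ornithine and urea by CAR1 (YPL111W, arginase), and ornithine is taken on by CAR2 (YLR438W, ornithine aminotransferase). Urea enters through DUR3 (YHL016C, a urea transporter) and is degraded to ammonia and carbon dioxide by DUR1,2 (YBR208C, urea amidolyase). GABA is taken up by UGA4 (YDL210W, a permease) and has its amino group removed by UGA1 (YGR019W, GABA aminotransferase). GDH2 (YDL215C, the NAD-dependent glutamate dehydrogenase) releases ammonia from glutamate, and DAL80 (YKR034W) encodes a GATA-type repressor of nitrogen breakdown genes.

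Yeast uses these compounds when better nitrogen sources such as ammonia and glutamine run short. The zinc-finger activators Gln3 and Gat1 and their competitors, the repressors Dal80 and Gzf3, bind GATAAG sequences. The protein Ure2 holds Gln3 out of the nucleus in rich nitrogen. Dedicated activators add induction by the compound itself, with Put3 acting for proline and Uga3 for GABA, while Ume6 represses CAR1 and other genes through an element called URS1.

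PolyA RNA was sequenced from 4 groups of 3 libraries, and all 12 came from MATa cells in which lox sites bracket the chromosome IV centromere next to KanMX and in which the recombinase Cre, fused to an estradiol-binding domain, is integrated with LEU2. The reference strain carries lox-CEN4-lox:KanMX and GDP-creEBD78:LEU2 together with the marker alleles his3-delta-1 and leu2-delta-0 and, at other loci, ura3-delta-0 and met15-delta-0. The S10D-labelled strain carries, besides loxCEN4lox:KanMX and GDP-creEDB78:LEU2, the tagged arrays trp1::TetO:TRP1 and lys4::LacO:hphNT1, the reporters his3::LacR-GFP:HIS3 and TetR-mRFP, the histone locus hht2-hhf2::[HHT-S10D-HHFS]-URA3, and bar1-delta-, Ade1 and leu2-x. Each strain was kept for 3 hours in ethanol (EtOH, the solvent) or in estradiol (E2), which switches the recombinase on. No strain without lox sites or without the recombinase was among the libraries, so loss of the centromere, the recombinase and E2 itself cannot be told apart in an E2 response. The strains differ at many loci, so the histone allele and the rest of the genotype cannot be told apart in a strain difference. Whether libraries of 1 group represent independent cultures is not stated, so the p-values measure the spread between libraries, which may be technical.

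Libraries held 9362173 to 11806239 counts. The URA3 marker showed in the counts, with 0 to 5 counts per reference library and 1212 to 1529 per S10D-labelled library. BAR1, labelled bar1-delta- in the S10D-labelled strain, held 3162 to 3787 counts per library there and 6829 to 9265 per reference library. LYS4, the site of the LacO array in that strain, held 2875 to 3619 counts there and 1306 to 2225 in reference libraries. At the labelled histone locus, HHF2 held 216 to 279 counts per S10D-labelled library and 4428 to 7626 per reference library. HHT2 held 2290 to 2767 counts per S10D-labelled library and 7906 to 11145 per reference library. Not each labelled locus showed as a loss of RNA, and the cause was not tested. The 6 MATa markers, BAR1 among them, summed to 36803 to 46667 counts per reference library and 19952 to 24338 per S10D-labelled library. The 4 MATalpha markers summed to 624 to 816 and 460 to 587. The library reference EtOH replicate 3 differed from the rest of its group. Its chi-square per degree of freedom against replicates 1 and 2 was 30.5 and 31.6, compared with 1.38 to 4.88 for the 10 other pairs within groups, and named results whose call changes without it are given both ways. Levels are given as CPM, counts scaled to a common library size, and changes as log2 fold changes with their standard error (SE). A gene was called changed at a Benjamini-Hochberg adjusted p under 0.05 in edgeR's quasi-likelihood test, which was fitted on 5990 features that passed a filter on low counts, all 10 genes among them. In bulk RNA, a change in the share of cells that express a gene and a change in RNA per cell cannot be told apart.

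The upstream stretches below are shown because they carry the letters that these regulators are known to recognise. Both strands of the 500 bases before each start codon were searched in the R64 reference sequence from RefSeq for 4 motifs. GATAAG is bound by GATA factors. Put3 is known to bind CGG followed after 10 bases by CCG, and Uga3 to bind CCG followed after 4 bases by CGG. The core of URS1 was searched as GCCGCC. Each stretch reads 5′ to 3′ on the strand of its gene, and capitals mark the letters searched for. A match to GATAAG or URS1 on the opposite strand is capitalised in its reverse complement. The stretches lie at chrXII:424863-425001 on the plus strand for PUT1, chrVIII:181773-181841 on the plus strand for PUT2, chrXVI:339774-339809 on the plus strand for CAR1 and chrXII:1012299-1012338 on the plus strand for CAR2. Those of the urea and GABA genes lie at chrII:642514-642704 on the minus strand for DUR1,2, chrVIII:74559-74617 on the minus strand for DUR3 and chrIV:83817-83896 on the plus strand for UGA4.
PUT1: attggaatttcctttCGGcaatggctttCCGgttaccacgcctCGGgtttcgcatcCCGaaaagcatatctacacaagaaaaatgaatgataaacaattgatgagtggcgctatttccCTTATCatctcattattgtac
PUT2: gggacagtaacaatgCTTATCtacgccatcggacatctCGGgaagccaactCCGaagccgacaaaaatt
CAR1: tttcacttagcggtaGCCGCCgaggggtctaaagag
CAR2: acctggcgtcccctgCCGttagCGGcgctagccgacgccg
DUR1,2: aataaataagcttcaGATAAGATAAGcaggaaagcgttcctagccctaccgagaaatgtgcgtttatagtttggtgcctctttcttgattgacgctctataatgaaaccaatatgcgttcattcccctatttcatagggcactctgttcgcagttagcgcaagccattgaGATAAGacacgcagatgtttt
DUR3: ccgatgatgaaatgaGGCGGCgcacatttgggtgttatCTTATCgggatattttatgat
UGA4: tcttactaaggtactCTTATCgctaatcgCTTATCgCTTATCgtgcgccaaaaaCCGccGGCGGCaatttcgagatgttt

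PUT1 held 2 matches to the Put3 spacing and PUT2 held 1, and the third of the 10 genes with that spacing was GDH2. This spacing was present in 2.65% of 6000 promoters of the same length. GATAAG was present in 6 of the 10 genes, with 12 matches in all, and in 22.8% of promoters. DUR1,2, UGA4 and DAL80 held 3 matches each, and a promoter held 2 or more in 3.63% of cases. The first 2 matches of DUR1,2 share 1 base. The Uga3 spacing was present in CAR2, UGA1 and UGA4, and in 3.28% of promoters, and the match in UGA4 overlaps a GCCGCC match on the opposite strand. GCCGCC was present in CAR1, DUR3, UGA4, DAL80 and GDH2, and in 9.57% of promoters. In the shorter window of 250 bases before and 50 from the start codon on, GATAAG was present in 3 of the 10 genes, each other spacing in 1 and GCCGCC in 3, against 14.7%, 1.08%, 1.45% and 5.13% of 6001 promoters. A match describes letters only, and binding was not measured.

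Per length, the enzyme genes UGA1 and PUT2 had the highest levels, and the GABA permease and the repressor the lowest. In the reference strain in EtOH, UGA1 stood at 101.7 CPM per kilobase and PUT2 at 92.3, and their libraries overlapped. CAR2 and CAR1 followed at 66.7 and 65.2 CPM per kilobase, again overlapping, ahead of GDH2 at 37.4 and DUR1,2 at 16.8. DUR3 and PUT1 overlapped at 9.28 and 9.20 CPM per kilobase, UGA4 stood at 3.79 and DAL80 at 1.20. In the S10D-labelled strain the order differed in the middle, with GDH2 above CAR1 and CAR1 above CAR2 in EtOH and in E2, and these neighbours did not overlap. The 10 genes together took 0.0705% to 0.0716% of all counts in reference EtOH libraries and 0.0989% to 0.104% in reference E2 libraries. In the S10D-labelled strain they took 0.0665% to 0.0683% in EtOH and 0.0733% to 0.0746% in E2.

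**Figure D1:**
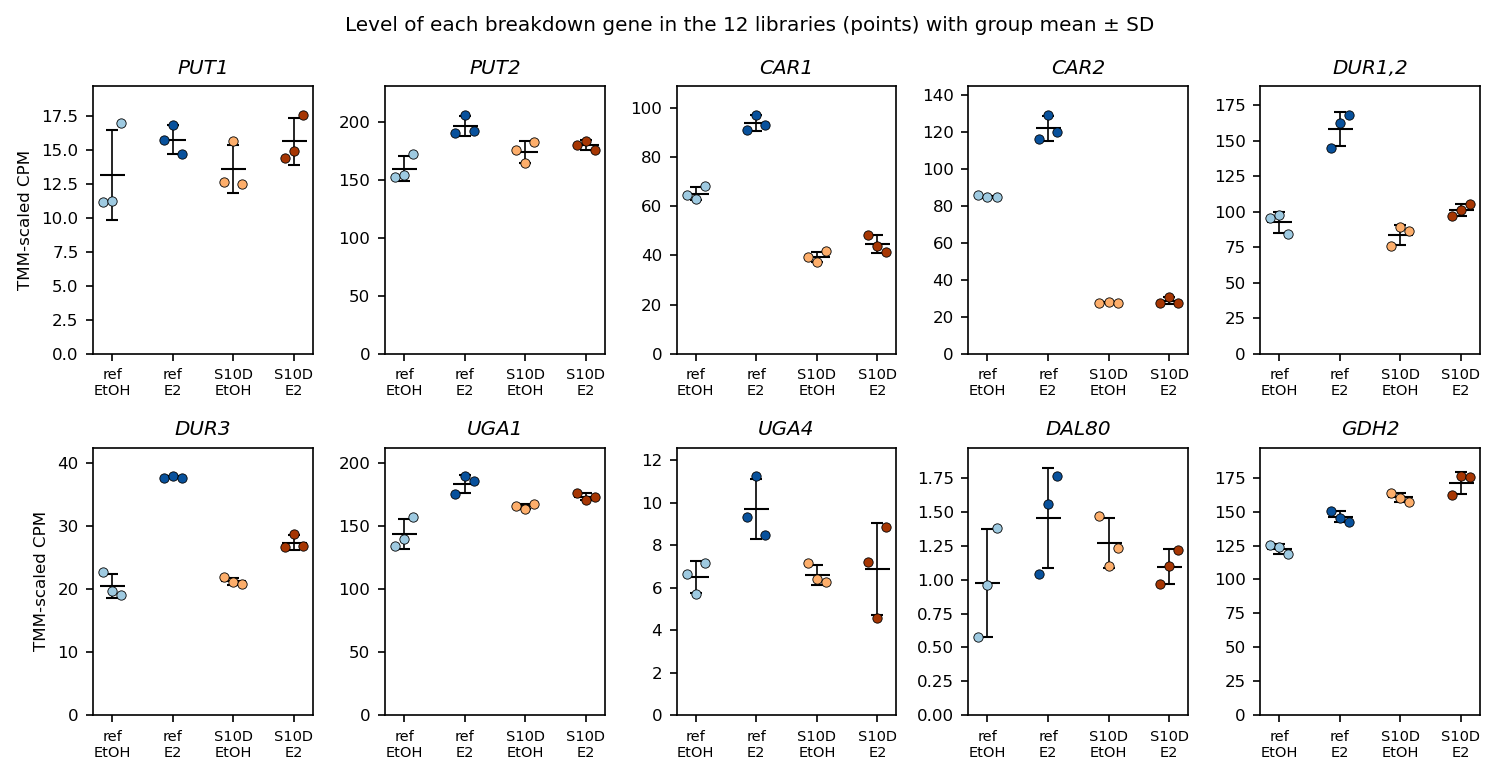
Level of each of the 10 genes (vertical axes, CPM, each from 0) in the 4 groups, with a point for each of 3 libraries, a wide bar at their mean and error bars of 1 SD. CAR1 and CAR2 sit lower in every S10D-labelled library than in every reference library, and DUR3 and DUR1,2 sit highest in the 3 reference E2 libraries.

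E2 in the reference strain was accompanied by higher RNA of most of these genes. Of the 10 genes, 8 rose and 0 fell, beside 22.4% of the features tested that rose. The median log2 fold change of the 10 genes was 0.52, and that of all features tested was -0.0035. The urea genes had the largest log2 fold changes, followed among the called genes by UGA4 and then CAR1 and CAR2, and PUT1 and DAL80 were not called.

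DUR3, the urea transporter, stood at 22.7, 19.7 and 19.1 CPM in reference EtOH replicates 1 to 3 and at 37.6, 38.0 and 37.7 CPM in E2. All 3 E2 libraries lay above all 3 EtOH libraries. Its log2 fold change was 0.88 (SE 0.073), a 1.84-fold rise, with an adjusted p of 4.9e-07. DUR1,2, the enzyme that degrades the imported urea, stood at 95.8, 97.5 and 84.1 CPM in EtOH and at 145.3, 162.4 and 168.5 CPM in E2. Its groups did not overlap either, and it rose by 0.78 (SE 0.075, adjusted p 1.81e-06). GATAAG lies upstream of both genes, of PUT2 and UGA4, which also rose, and of PUT1 and DAL80, which were not called. CAR1, CAR2, UGA1 and GDH2 also rose and hold no GATAAG in the 500 bases searched. Whether the motif bears on the rise was not tested.

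CAR1, arginase, stood at 64.6, 62.9 and 68.3 CPM in reference EtOH libraries and at 91.2, 97.5 and 93.2 CPM in E2. CAR2, which acts on the ornithine that arginase leaves, stood at 85.7, 84.8 and 84.8 CPM in EtOH and at 116.1, 129.5 and 120.3 CPM in E2. For both genes each E2 library lay above each EtOH library. The log2 fold changes were nearly equal, 0.52 (SE 0.062, adjusted p 1.34e-05) for CAR1 and 0.52 (SE 0.054, adjusted p 3.67e-06) for CAR2.

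Changes in the proline, glutamate and GABA genes were smaller or less precise. PUT2 stood at 152.3, 154.4 and 171.9 CPM in reference EtOH libraries and at 190.1, 206.1 and 192.1 CPM in E2. The groups did not overlap, and PUT2 rose by 0.30 (SE 0.057, adjusted p 0.000815). PUT1, the enzyme ahead of it, stood at 11.2, 11.3 and 17.0 CPM in EtOH and at 15.8, 16.9 and 14.7 CPM in E2. EtOH replicate 3 was as high as the E2 libraries, and the log2 fold change of PUT1 was 0.25 (SE 0.15, adjusted p 0.195). Without that library, the one that stood apart, it was 0.49 with an adjusted p of 0.00187.

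UGA1, the GABA aminotransferase, stood at 134.1, 140.2 and 157.6 CPM in reference EtOH libraries and at 175.5, 189.9 and 185.7 CPM in E2, without overlap. It rose by 0.35 (SE 0.056, adjusted p 0.000179). The permease UGA4 stood at 6.67, 5.69 and 7.17 CPM in EtOH and at 9.32, 11.3 and 8.50 CPM in E2, also without overlap. UGA4 rose by 0.57 (SE 0.19, adjusted p 0.0269), a call that was lost without EtOH replicate 2 (0.48, adjusted p 0.0832) or without E2 replicate 2 (0.45, adjusted p 0.113). GDH2, which releases ammonia from the glutamate that these pathways yield, stood at 125.1, 123.9 and 118.6 CPM in EtOH and at 150.8, 145.5 and 142.7 CPM in E2. It rose by 0.26 (SE 0.047, adjusted p 0.000575), again without overlap.

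DAL80, the repressor, had the lowest level of the 10 genes. It stood at 0.580, 0.964 and 1.38 CPM in reference EtOH libraries and at 1.04, 1.56 and 1.77 CPM in E2. The groups overlapped, and its log2 fold change was 0.55 (95% interval -0.14 to 1.24, adjusted p 0.183). UGA4 and GDH2 lie on chromosome IV, whose 737 genes had a median log2 fold change of 0.12 in this comparison, against -0.018 for the genes of other chromosomes. With scaling factors computed without chromosome IV, the values were 0.59 for UGA4 and 0.28 for GDH2.

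**Figure D2:**
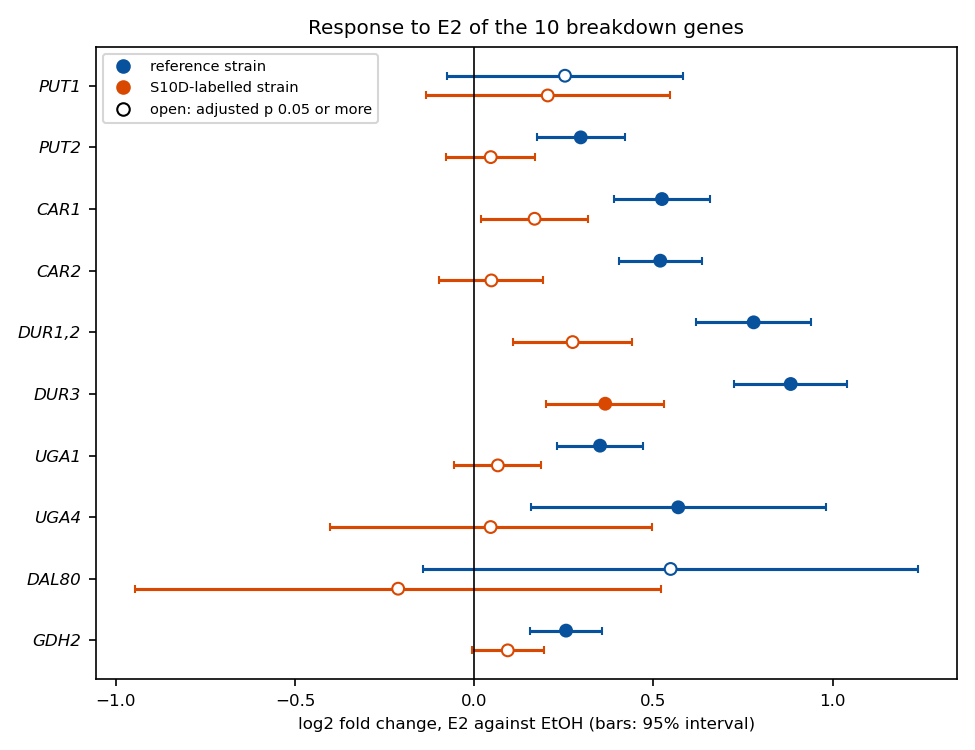
Log2 fold change of E2 over EtOH (horizontal axis) of each of the 10 genes in the reference and the S10D-labelled strain, with 95% intervals from the edgeR fit. The reference value is the higher for all 10 genes; DUR3 shows 0.88 in the reference strain and 0.37 in the S10D-labelled strain.

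In the fit of all 12 libraries, E2 treatment of the S10D-labelled strain was accompanied by few called changes in these genes. DUR3 was the only 1 of the 10 called higher, beside 2.42% of all features, and none was called lower. The median log2 fold change was 0.080, and that of all features was 0.0012. The number of calls depended on which libraries shared the estimate of the spread. In either direction, 273 of 5990 features were called in this fit. With only the libraries compared, 1370 of 5829 features and 2 of the 10 genes were called. The same settings gave 2671 of 5990 and 1843 of 5937 features in the reference strain. DUR3 stood at 21.9, 21.2 and 20.8 CPM in EtOH and at 26.7, 28.7 and 26.8 CPM in E2, without overlap. It rose by 0.37 (SE 0.077, adjusted p 0.0159). That call was lost when EtOH replicate 2 or 3 or E2 replicate 2 or 3 of the strain was left out, with adjusted p between 0.0512 and 0.0859.

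DUR1,2 stood at 75.8, 89.0 and 86.4 CPM in S10D-labelled EtOH libraries and at 97.1, 101.2 and 105.4 CPM in E2. The groups did not overlap, but the log2 fold change of 0.27 (SE 0.077) had an adjusted p of 0.0619. Without reference EtOH replicate 3, which enters the shared estimate of the spread, the adjusted p was 0.00185. CAR1 stood at 39.5, 37.5 and 41.6 CPM in EtOH and at 48.5, 43.7 and 41.4 CPM in E2, with overlap and a log2 fold change of 0.17 (adjusted p 0.218). CAR2 stood at 27.3, 28.2 and 27.5 CPM in EtOH and at 27.5, 30.7 and 27.4 CPM in E2, with overlap and a log2 fold change of 0.048 (adjusted p 0.788).

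The other 6 genes had log2 fold changes between -0.21 and 0.21 in this strain. UGA1 stood at 166.2, 163.6 and 167.9 CPM in EtOH and at 176.8, 170.9 and 173.4 CPM in E2. The E2 libraries all lay above the EtOH libraries, with a log2 fold change of 0.066 (95% interval -0.055 to 0.19). PUT2 stood at 175.3, 164.2 and 182.5 CPM in EtOH and at 180.2, 183.6 and 175.3 CPM in E2, and its groups overlapped (0.046, 95% interval -0.077 to 0.17). The groups of PUT1, UGA4, DAL80 and GDH2 overlapped as well, with PUT1 between 12.5 and 17.6 CPM and UGA4 between 4.59 and 8.87 CPM over both treatments. DAL80 lay between 0.969 and 1.47 CPM and GDH2 between 157.0 and 176.2 CPM.

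The difference between the strains in their response to E2 was tested by the interaction of strain and treatment. Of the 10 genes, 6 had a smaller log2 response in the S10D-labelled strain, beside 10.6% of all features, and none had a larger one. The median difference over the 10 genes was -0.41, against 0.0076 over all features. This contrast uses the same libraries as the responses above and is not a separate measurement of them. The differences were -0.52 for DUR3 (SE 0.11, adjusted p 0.00344), -0.51 for DUR1,2 (SE 0.11, adjusted p 0.00435) and -0.47 for CAR2 (SE 0.086, adjusted p 0.00156). These urea and arginine genes kept their call under every alternative that was run.

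The calls of the remaining genes were less firm. CAR1 differed by -0.36 (SE 0.093, adjusted p 0.0154), and without S10D-labelled EtOH replicate 3 by -0.32 with an adjusted p of 0.0508. UGA1 differed by -0.29 (SE 0.080, adjusted p 0.0215). Its call was lost without reference E2 replicate 2 and without S10D-labelled EtOH replicate 1 or 3 or E2 replicate 2 or 3, at adjusted p of 0.0502 to 0.0594. PUT2 differed by -0.25 (SE 0.081, adjusted p 0.0421), and of the 12 fits that left a library out it kept its call in those without reference EtOH replicate 3, reference E2 replicate 1 or S10D-labelled EtOH replicate 2. The other 4 genes were not called. Their 95% intervals ran from -1.13 to 0.087 for UGA4, from -1.77 to 0.25 for DAL80, from -0.31 to -0.020 for GDH2 (adjusted p 0.101) and from -0.52 to 0.43 for PUT1.

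**Figure D3:**
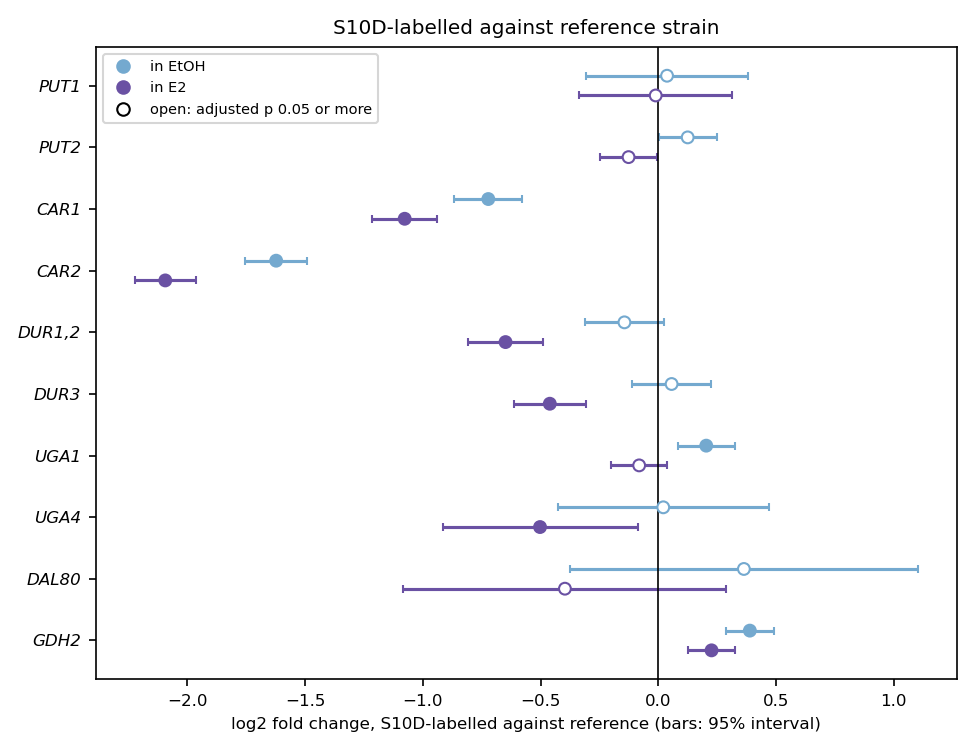
Log2 fold change of the S10D-labelled strain over the reference strain (horizontal axis) of each of the 10 genes in EtOH and in E2, with 95% intervals from the edgeR fit. CAR2 is lowest at -1.62 in EtOH and -2.09 in E2, and GDH2 is above 0 in both.

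The strains differed most in the arginine genes, already without E2. In EtOH, 2 of the 10 genes were higher in the S10D-labelled strain, beside 26.7% of all features, and 2 were lower, beside 31.4%. CAR2 was lower by a log2 fold change of -1.62 (SE 0.061, adjusted p 2.13e-11), with S10D-labelled libraries at 27.3 to 28.2 CPM and reference libraries at 84.8 to 85.7 CPM. CAR1 was lower by -0.72 (SE 0.067, adjusted p 5.34e-07), at 37.5 to 41.6 CPM against 62.9 to 68.3 CPM. The libraries of the strains were far apart for both genes. GDH2 was higher by 0.39 (SE 0.047, adjusted p 8.26e-06) and UGA1 by 0.20 (SE 0.057, adjusted p 0.00681), both without overlap.

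The other 6 genes were not called in EtOH. DUR3 had a log2 fold change of 0.057 (95% interval -0.11 to 0.23), PUT1 of 0.038, UGA4 of 0.022 and DAL80 of 0.36 (adjusted p 0.38). PUT2 had 0.13 (adjusted p 0.0767), which was 0.18 with an adjusted p of 0.00146 without reference EtOH replicate 3. PUT2 was also called without reference E2 replicate 2 (adjusted p 0.0499) or S10D-labelled EtOH replicate 2 (adjusted p 0.0426). DUR1,2 had -0.14 (adjusted p 0.127), which was -0.21 with an adjusted p of 0.00808 without the library that stood apart.

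In E2, 5 of the 10 genes were lower in the S10D-labelled strain, beside 27.3% of all features, and 1 was higher, beside 27.0%. CAR2 was lower by -2.09 (SE 0.060, adjusted p 1.13e-12) and CAR1 by -1.08 (SE 0.065, adjusted p 5.48e-09). DUR1,2 was lower by -0.65 (SE 0.075, adjusted p 5.46e-06) and DUR3 by -0.46 (SE 0.071, adjusted p 9.14e-05), so the urea genes, whose EtOH values were not called, were called here. GDH2 was higher by 0.23 (SE 0.047, adjusted p 0.000965). UGA4 was lower by -0.50 (SE 0.19, adjusted p 0.0401), and its S10D-labelled libraries at 4.59 to 8.87 CPM overlapped the reference libraries at 8.50 to 11.3 CPM. That call was lost when any of 7 libraries was left out, namely reference E2 replicate 1 or 2, any S10D-labelled EtOH library, or S10D-labelled E2 replicate 1 or 2, with log2 fold changes of -0.53 to -0.27. PUT2 had -0.13 (adjusted p 0.0765), which reached an adjusted p of 0.00931 without reference EtOH replicate 3, and UGA1, PUT1 and DAL80 had -0.081, -0.011 and -0.40 and were not called. The strain differences in EtOH and the E2 responses of the reference strain share the reference EtOH libraries.

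A further 36 genes were sorted into 6 lists that cover proline, arginine regulation and uptake, GABA, allantoin, nitrogen regulators, and ammonium with glutamate and glutamine. In the reference strain 11 of the 36 rose and 6 fell with E2, beside 22.4% and 22.2% of all features, or 10 and 8 without reference EtOH replicate 3. In the S10D-labelled strain 0 rose and 1 fell, beside 2.42% and 2.14% of all features, or 4 and 6 without that library. Over all features, 273 of 5990 were called in that response, and 991 of 6018 without that library. The log2 response was lower in the S10D-labelled strain for 11 genes and higher for 0, beside 10.6% and 9.82% of all features, or 11 and 2 without it. Over all features, 1224 differences were called, and 1994 without it. Between the strains in EtOH 11 were higher and 13 lower, beside 26.7% and 31.4% of all features, or 12 and 15 without it. In E2 9 were higher and 14 lower, beside 27.0% and 27.3%, or 9 and 16 without it.

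The 3 other GABA genes all rose in the reference strain with E2, beside 22.4% of all features. UGA2, which oxidises the product of UGA1, rose by 0.85 (SE 0.087, adjusted p 3.94e-06), and GAD1, glutamate decarboxylase, by 0.73 (SE 0.062, adjusted p 5.71e-07). The activator UGA3 lies on chromosome IV, whose genes had a median log2 fold change of 0.12 in this comparison. UGA3 rose by 0.31 (SE 0.092, adjusted p 0.0142). That call was lost without reference E2 replicate 1 (adjusted p 0.0515) or with only the libraries compared (adjusted p 0.0611). All 3 GABA genes had a smaller response in the S10D-labelled strain, by -0.60 for UGA2, -0.74 for GAD1 and -0.40 for UGA3. The UGA3 difference (adjusted p 0.0451) was lost in 9 of the 12 fits that left a library out, all but those without reference EtOH replicate 1 or 3 or S10D-labelled E2 replicate 2. In EtOH, GAD1 was lower in the S10D-labelled strain by -0.35 (adjusted p 0.000256), UGA3 was higher by 0.34 (adjusted p 0.00585), and UGA2 stood at 0.062 and was not called. Without reference EtOH replicate 3, UGA2 was higher in the S10D-labelled strain by 0.20 (adjusted p 0.00678).

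Among the proline genes 1 of 5 rose and 2 fell in the reference strain with E2, beside 22.4% and 22.2% of all features. PUT4, a proline permease, rose by 1.65 (SE 0.12, adjusted p 2.61e-07), while the biosynthetic genes PRO3 and PRO2 fell by 0.32 (adjusted p 0.00116) and by 0.16 (adjusted p 0.0342). The PRO2 call was lost without reference E2 replicate 1 (adjusted p 0.17) or 3 (adjusted p 0.0861). PUT4 had a response smaller by -1.31 (SE 0.16, adjusted p 7.96e-05) in the S10D-labelled strain, where its log2 fold change was 0.33 and was not called (adjusted p 0.0957). Without reference EtOH replicate 3, that response was called at the same value with an adjusted p of 9.24e-05. In EtOH it was higher in that strain by 2.0 (adjusted p 8.24e-09), as were the activator PUT3 by 0.98 (adjusted p 4.25e-10) and PRO2 by 0.41 (adjusted p 1.99e-05). PUT3 had a log2 fold change of 0.068 with E2 in the reference strain and was not called there.

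Of the 7 genes of arginine regulation and uptake, 2 rose and 1 fell with E2 in the reference strain, beside 22.4% and 22.2% of all features. In EtOH, 6 were lower and 0 higher in the S10D-labelled strain, beside 31.4% and 26.7%. The 6 include ARG81 at -0.12 (adjusted p 0.0492), whose call was lost in 18 of 19 alternatives. CAN1, the arginine permease, rose by 0.31 (adjusted p 0.00226), the regulator ARG81 rose by 0.18 (adjusted p 0.0071) and the kinase ARG82 fell by 0.22 (adjusted p 0.0201). The ARG82 call was lost without reference EtOH replicate 1 (adjusted p 0.0738) or reference E2 replicate 1 or 3 (adjusted p 0.0635 and 0.0546). In EtOH the S10D-labelled strain had less RNA of ARG82 (-0.73, adjusted p 1.35e-06), of the basic amino acid permease gene ALP1 (-0.67, adjusted p 0.00189) and of CAN1 (-0.60, adjusted p 5.86e-06). These lay in the same direction as CAR1 and CAR2. UME6, whose product represses CAR1, was also lower there, by -0.25 (adjusted p 0.00523). Whether any of these bears on CAR1 or CAR2 was not tested.

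Of the 6 nitrogen regulators, 1 rose and 1 fell with E2 in the reference strain, shares near the 22.4% and 22.2% of all features. GLN3 rose by 0.19 (adjusted p 0.022), lost without reference EtOH replicate 1 (adjusted p 0.0753) or reference E2 replicate 2 (adjusted p 0.102), and DAL81, a shared activator of the allantoin and GABA genes, fell by 0.20 (adjusted p 0.0437). The DAL81 call was kept in 3 of the 12 fits that left a library out, those without reference EtOH replicate 3, reference E2 replicate 2 or S10D-labelled EtOH replicate 3. GAT1 stood at 0.0030, GZF3 at 0.093, URE2 at -0.037 and DAL82 at -0.020, and none was called. In EtOH, URE2 was higher in the S10D-labelled strain by 0.32 (adjusted p 3.53e-05) and GAT1 was lower by -0.32 (adjusted p 0.000612). GLN3, GZF3, DAL81 and DAL82 had values between -0.18 and 0.12 in that comparison and were not called. DAL81 had -0.17 (adjusted p 0.0677), which was -0.27 with an adjusted p of 2.78e-05 without reference EtOH replicate 3.

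Among the 7 allantoin genes, 1 rose in the reference strain with E2 and 1 fell, beside 22.4% and 22.2% of all features. DAL1, allantoinase, rose by 0.59 (adjusted p 0.0304). That was 0.37 with an adjusted p of 0.122 without reference EtOH replicate 3, and the call was also lost without reference E2 replicate 2 (adjusted p 0.087) or 3 (adjusted p 0.0911). DAL3, ureidoglycolate lyase, which yields urea, fell by 0.56 (adjusted p 0.0014). In EtOH the allantoin permease gene DAL4 was higher in the S10D-labelled strain by 1.02 (adjusted p 0.000965) and DCG1 by 0.99 (adjusted p 2.56e-05), and DAL3 was lower by -0.53 (adjusted p 0.00162).

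Of the 8 genes of ammonium, glutamate and glutamine, 3 rose and 1 fell with E2 in the reference strain, beside 22.4% and 22.2% of all features. GLT1, glutamate synthase, which lies on chromosome IV like UGA3, rose by 0.87 (adjusted p 1.09e-05). GAP1, the general amino acid permease, rose by 0.84 (adjusted p 8.42e-08). The ammonium permease gene MEP1 rose by 0.23 (adjusted p 0.0401), a call lost in 10 of 19 alternatives. Of the 12 fits that left a library out, it was kept in those without reference EtOH replicate 3, reference E2 replicate 1, or S10D-labelled E2 replicate 1 or 3. In EtOH the S10D-labelled strain had more RNA of GDH1, an NADP-dependent glutamate dehydrogenase (0.89, adjusted p 7.14e-10), of GLN1, glutamine synthetase (0.55, adjusted p 1.49e-07), and of MEP1 (0.42, adjusted p 0.000757). GDH1 and GDH3 are close paralogs. Reads that fit both may have been dropped or assigned to either, since the counting settings are not given.

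**Figure D4:**
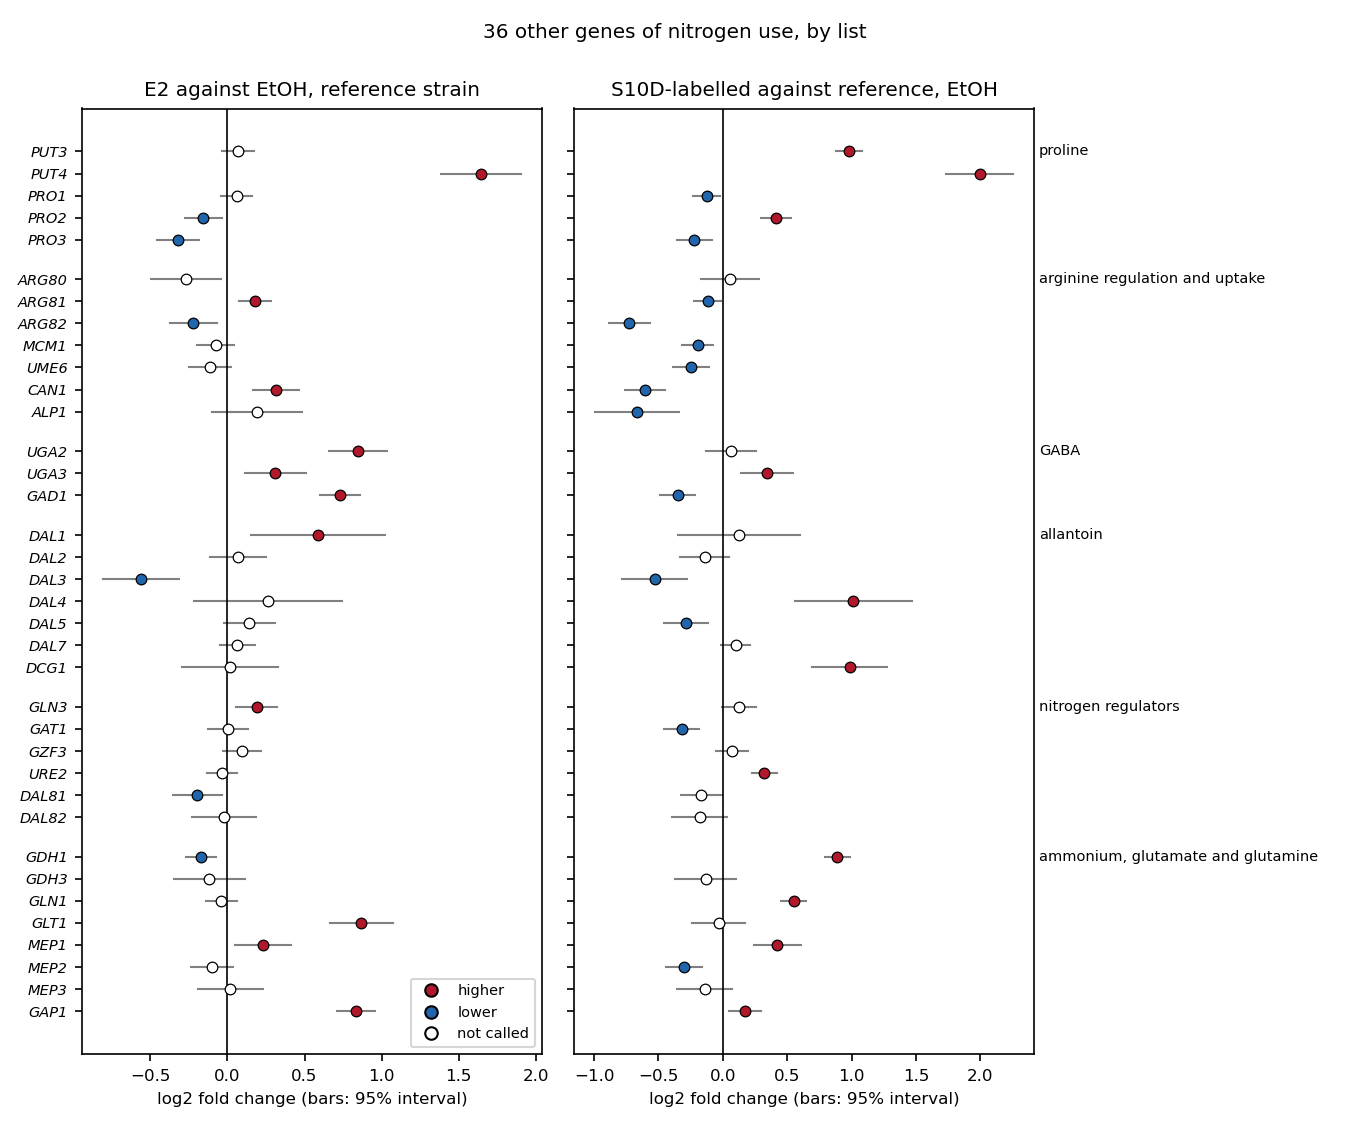
Log2 fold change (horizontal axis) of the 36 further genes of nitrogen use, grouped by list, with called genes filled. They include genes of synthesis and regulation. The E2 response of the reference strain and the strain difference in EtOH are shown. PUT4 lies farthest to the right in both, at 1.65 and 2.0.

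For each of the 10 genes, the feature whose log2 CPM followed it most closely over the 12 libraries was looked up among 5297 other features with a mean of at least 10 CPM. These correlations are a description, since the libraries fall into 4 groups and share their scaling. GRE1 was closest to CAR2 (Pearson r = 0.995 over 12 libraries), RRP12 to GDH2 (r = 0.989) and PMA2 to CAR1 (r = 0.986). SPC110 was closest to DUR1,2 (r = 0.982), CDC13 to DUR3 (r = 0.98), SNX4 to UGA1 (r = 0.971) and GPD2 to PUT2 (r = 0.94). The lowest were VPS17 with DAL80 (r = 0.885), PEP12 with PUT1 (r = 0.858) and SLM1 with UGA4 (r = 0.847). Each r is the highest over the 5297 features, and many others came close for some genes. The 99th percentile of r was 0.972 for CAR2, 0.96 for CAR1 and 0.946 for GDH2, and was lowest for DAL80 at 0.674.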

How the data were processed

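PolyA RNA was sequenced from 12 libraries in 4 groups of 3, prepared with a kit that keeps strand, per the labels' protocols. The authors deposited raw whole-number counts per feature for the 12 libraries. The submitters' processing notes name the builds R64 and sacCer3, STAR 2.5.3a with HTSeq 0.6.1p1, and also bcl2fastq 2.20.0.422 and cutadapt 1.10; their settings, and the strand setting of counting, are not given in the sources used here. The counts were tested as deposited with edgeR 4.0.16 in R 4.3.3, using TMM scaling, the filterByExpr filter (minimum count 10), a quasi-likelihood fit of 4 group means over 12 libraries and Benjamini-Hochberg adjustment over 5990 features. The fit was first tested on simulated data. An SE is the log2 fold change divided by the square root of the F statistic, and 95% intervals come from the same fit. Levels are CPM on TMM-scaled library sizes, and per-length levels divide them by the gene's length in kilobases. The common variation between libraries beyond counting noise, as estimated by edgeR, was 6.31%. DESeq2 1.42.0, other scalings and filters, a replicate block and each library left out were alternatives.

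The 10 genes, the lists and the motifs were chosen with earlier results of these data known, so no test over a list was made. All 10 genes are named. Of the other lists, up to 3 called genes with the largest change per list were named in the E2 response of the reference strain and in the strain difference in EtOH, plus PUT3, PUT4, the other GABA genes and the nitrogen regulators. The 500-base promoter window and the counts over the 36 pathway genes without reference EtOH replicate 3 were added after seeing the data. So were the values of UME6. Replicate numbers were shared between groups, but only 1 of 18 same-numbered pairs of libraries had deviations correlated above 0.1, and the samples were not treated as paired.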

Additional observations from a re-analysis of the deposited data

Results flagged for a closer look

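The E2 response differed between the strains for 6 of the 10 genes by the interaction test in edgeR, and each is listed as a closer look because the same treatment gave a different log2 fold change in each strain. S10D-labelled minus reference, the difference was -0.52 for DUR3, -0.51 for DUR1,2, -0.47 for CAR2, -0.36 for CAR1, -0.29 for UGA1 and -0.25 for PUT2. Groups of 3 libraries are too small for a test of single outlying samples.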

How the results depend on the processing

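Of 25 called results of the 10 genes, 19 kept their call under every alternative run and 6 lost it under at least 1; of 25 results not called, 5 were called under at least 1, and none changed direction while called. The count of genes called for the E2 response of the S10D-labelled strain was 1, and was 2 with DESeq2, 2 with only the libraries compared, and 0 to 2 with a library left out. All features called in that response were 273 of 5990, 372 of 5990 with DESeq2 and 1370 of 5829 with only the libraries compared. The count for the difference of E2 responses was 6, and was 3 to 6 with a library left out. With a replicate block it was 5, since PUT2 was then at -0.25 with an adjusted p of 0.0501, and the block changed no other call of the 10 genes. Among the other pathway genes, the E2 response of MEP3 in the reference strain was 0.018 and turned to -0.12 (adjusted p 0.0377) without reference EtOH replicate 3, and ranged from -0.12 to 0.12 with a library left out; the cause was not tested. Gene and coding length were equal for all 10 genes, so that alternative gave the same levels. With a minimum mean of 10 CPM, UGA4 and DAL80 were not tested. Low counts limit DAL80 and UGA4, whose 95% intervals were the widest of the 10 genes. Among the other pathway genes, DAL1 held 28 to 66 counts per library and DAL4 held 24 to 68.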
